A study of Mus musculus with 8 samples.

Results

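Genes of the ectodysplasin receptor and NF-kB pathway were followed in the dental epithelium of Foxi3 conditional knockout and wild-type mouse embryos. The set was given as 10 mouse genes by Ensembl identifier, and 9 of them had a row among the 26165 genes of the expression table. They were the ligand Eda, the receptors Edar, Eda2r and Tnfrsf19, the inhibitor Nfkbia, and the NF-kB subunit genes Nfkb1, Nfkb2, Rela and Relb. The remaining one, Edaradd, which encodes the adaptor of Edar, was not analysed here.

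The tissue was mandibular molar epithelium at E13.5 (days of embryonic development), separated from the mesenchyme with dispase, and each array measured RNA pooled from 5 embryos of one genotype. The conditional knockout (cKO) group of 4 pools carried the K14-cre43 transgene, a Cre recombinase driven by the keratin 14 promoter and so active in epithelium, with a floxed Foxi3 allele and, per the design text, a Foxi3 null allele. The 4 control pools are titled wild type, but their genotype label reads Foxi3+/floxed, and it names no Cre. What the transgene, the null allele and the loss of Foxi3 in epithelium each contribute cannot be told apart in this design. The level of Foxi3 itself and the markers of epithelium and of other cell types were not analysed here, because the table does not pair identifiers with symbols, so neither the deletion nor the purity of the pools was checked. The array medians lay between 5.25 and 5.30 on the log2 scale on 7 arrays and at 5.44 on wild-type replicate 2.

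Ectodysplasin is a ligand of the tumour necrosis factor (TNF) family. It binds the receptor Edar, which recruits an adaptor and activates a kinase complex, and this complex marks the inhibitor encoded by Nfkbia for destruction. NF-kB dimers then enter the nucleus and switch on target genes. In mice and humans, loss of the ligand, of Edar or of the adaptor causes hypohidrotic ectodermal dysplasia, with missing or misshapen teeth, sparse hair and defective sweat glands. Foxi3 encodes a forkhead transcription factor of ectodermal placodes, and in mouse embryos its expression has been reported to depend on ectodysplasin signalling. The comparison asks whether the genes of this pathway differ in level when Foxi3 is deleted from the epithelium.

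One receptor gene was called lower in the cKO, though the call depended on the setting. Tnfrsf19, which encodes Troy, a TNF receptor related to Edar and Eda2r, was 1.56-fold lower in cKO than in wild-type epithelium, the only one of the 9 genes past the threshold (limma, adjusted p under 0.05). The call ended under 10 of 17 alternative settings. No gene of the set was called higher, and 8 were not called in either direction. Over all genes the called share was 1.31%, 0.688% as higher and 0.619% as lower in the cKO. The 342 calls behind that share became 119 to 303 when 1 array was left out, with fewer samples in each fit. At an unadjusted p under 0.05, 1 of the 9 genes passed, against 9.67% of all genes. The median difference over the 9 genes was −0.0019 on the log2 scale (cKO minus wild type), against −0.018 over all genes. The median size of the difference, regardless of sign, was 0.077 over the 9 genes and 0.065 over all genes. Of the 9 genes, 4 had a positive and 5 a negative difference.

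Promoter windows from RefSeq (build GRCm38.p6) are shown for Tnfrsf19, the only gene called, and for 2 genes of the pathway's own feedback. The genes for the inhibitor and for the p100 precursor are both known targets of NF-kB. Each window holds 250 bases before and 50 bases after an annotated transcription start, written 5′ to 3′ on the gene's strand. Capitals mark matches to the NF-kB consensus, searched on both strands.
Tnfrsf19, first start (chr14:61046806-61047105, minus strand): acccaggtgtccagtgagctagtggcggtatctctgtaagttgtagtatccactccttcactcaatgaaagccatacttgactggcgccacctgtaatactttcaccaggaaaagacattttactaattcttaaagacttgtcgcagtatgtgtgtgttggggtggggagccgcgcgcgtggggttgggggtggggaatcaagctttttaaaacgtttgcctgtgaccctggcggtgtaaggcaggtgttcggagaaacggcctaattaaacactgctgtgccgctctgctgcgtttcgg
Tnfrsf19, second start (chr14:61037938-61038237, minus strand): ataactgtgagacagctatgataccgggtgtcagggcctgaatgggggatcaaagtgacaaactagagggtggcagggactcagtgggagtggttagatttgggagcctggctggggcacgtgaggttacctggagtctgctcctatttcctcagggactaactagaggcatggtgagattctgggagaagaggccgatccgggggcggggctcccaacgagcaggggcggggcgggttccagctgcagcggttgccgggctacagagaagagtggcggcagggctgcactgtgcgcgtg
Nfkbia (chr12:55492598-55492897, minus strand): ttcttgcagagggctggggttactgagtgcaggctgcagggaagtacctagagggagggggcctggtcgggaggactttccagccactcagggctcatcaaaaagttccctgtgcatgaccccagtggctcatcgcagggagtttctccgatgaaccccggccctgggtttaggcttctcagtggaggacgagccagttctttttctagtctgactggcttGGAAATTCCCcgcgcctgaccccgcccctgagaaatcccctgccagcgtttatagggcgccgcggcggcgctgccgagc
Nfkb2, first of 3 starts (chr19:46304487-46304786, plus strand): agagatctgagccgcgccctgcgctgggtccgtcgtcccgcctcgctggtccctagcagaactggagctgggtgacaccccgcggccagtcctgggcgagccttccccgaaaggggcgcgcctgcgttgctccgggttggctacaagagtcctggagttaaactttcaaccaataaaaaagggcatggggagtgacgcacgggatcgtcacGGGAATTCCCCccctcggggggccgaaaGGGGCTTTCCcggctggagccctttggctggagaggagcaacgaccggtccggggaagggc

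Neither Tnfrsf19 window held a match to the NF-kB consensus. The Nfkbia window held 1 match, beginning 29 bases before the start. The Nfkb2 window shown held 3 matches, of which 2 overlapped, being shifted by a single base, in the longer run of capitals. Windows were found for 8 of the 10 genes, 11 windows in all, and those with a match belonged to Nfkbia and Nfkb2. Among all 32851 promoter windows of the same length, 8.46% held a match. The exact forkhead motif TGTTTAC, also searched on both strands, was in 3.65% of all windows. Among these genes it was in the window of Eda2r alone, 125 bases before its start. Other forms of the forkhead motif were not searched. These matches describe letters in the windows and say nothing about binding.

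Eda (ENSMUSG00000059327), the ligand, had 6.77, 6.76, 6.71 and 6.79 in cKO replicates 1 to 4, against 6.71, 6.70, 6.66 and 6.66 in wild-type replicates 1 to 4 (log2 RMA expression, as for all values by array below). The groups did not overlap, though by a narrow margin, with the lowest cKO value at 6.714 and the highest wild-type value at 6.711. Such separation was seen in 2 of these 9 genes, Eda with cKO above wild type and Tnfrsf19 with cKO below it. It was seen in 7.85% of all genes, in 4.14% with cKO above and in 3.71% with cKO below wild type. The difference of Eda was 0.077 (SE 0.038, 95% confidence interval −0.012 to 0.165), and it did not pass the threshold (limma adjusted p = 0.60, unadjusted p = 0.080). In linear terms the interval ran from 0.992 to 1.12 times the wild-type level. Each gene had 1 row, so splice forms of Eda, which bind different receptors, were not resolved.

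**Figure D1:**
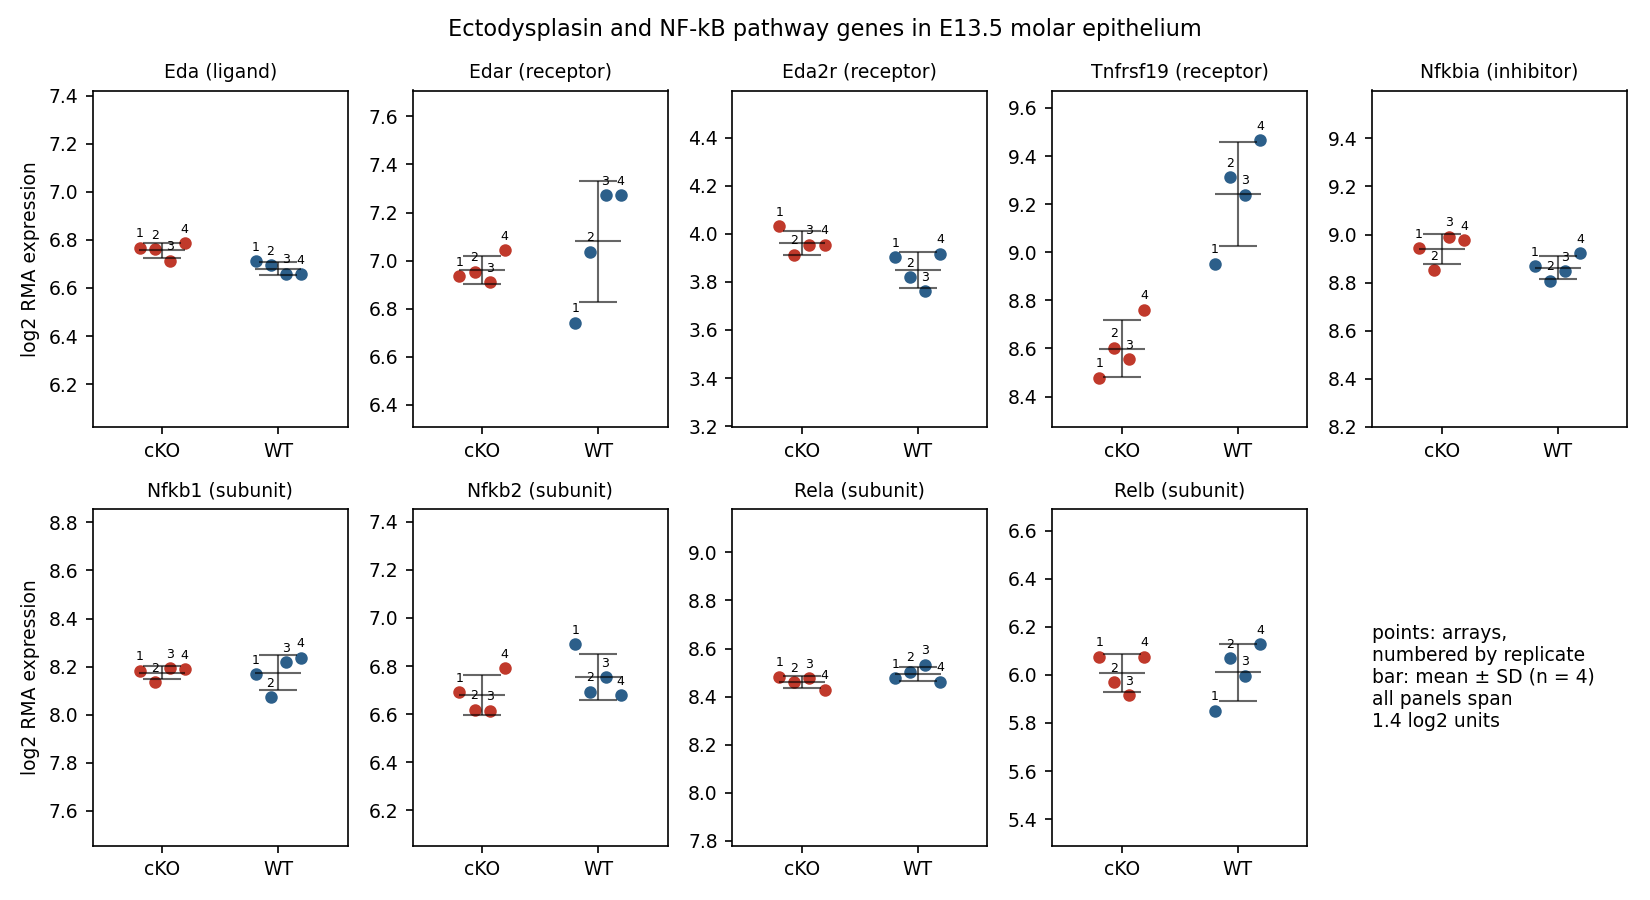
Log2 RMA expression of the 9 genes in each array, with cKO (red) left of wild type (WT, blue); points are arrays numbered by replicate, bars are means ± SD (n = 4), and every panel spans the same range. The cKO points of Tnfrsf19, at 8.48 to 8.76, all lie below its wild-type points, at 8.95 to 9.47, and Eda is the only other gene whose groups do not overlap.

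Edar (ENSMUSG00000003227), the ectodysplasin receptor needed for tooth and hair development, had 6.94, 6.95, 6.91 and 7.04 in cKO replicates 1 to 4. In wild-type replicates 1 to 4 it had 6.74, 7.04, 7.27 and 7.27. The wild-type values spread on both sides of the cKO values, with wild-type replicate 1 below all cKO arrays and replicates 3 and 4 above them. The mean was 6.96 ± 0.058 in the cKO and 7.08 ± 0.25 in wild type (SD, n = 4 each). The difference of −0.12 (SE 0.11, 95% confidence interval −0.38 to 0.14) did not pass the threshold (limma adjusted p = 0.80). This interval is the widest of the 9 genes, and it includes anything from a 1.30-fold lower to a 1.10-fold higher level in the cKO. The difference depended on single wild-type arrays and was not called when any of them was left out. It was −0.23 without replicate 1 (limma adjusted p = 0.34), −0.14 without replicate 2 (0.81), −0.057 without replicate 3 (0.86) and −0.057 without replicate 4 (0.89).

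Eda2r (ENSMUSG00000034457), also known as Xedar, the X-linked receptor of another splice form of ectodysplasin, had 4.03, 3.91, 3.95 and 3.96 in cKO replicates 1 to 4 and 3.90, 3.82, 3.76 and 3.92 in wild-type replicates 1 to 4. The groups overlapped between cKO replicate 2 and wild-type replicate 4. The difference was 0.11 (SE 0.051, 95% confidence interval −0.0032 to 0.23; limma adjusted p = 0.53). Its signal was dim, below the 40th percentile of mean signal over all genes (4.72), a level set for the filter on dim genes. It was the only gene of the 9 below that level. RMA narrows the differences of dim genes. Without detection calls, expression of Eda2r could not be told from background.

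Tnfrsf19 (ENSMUSG00000060548) had 8.48, 8.60, 8.55 and 8.76 in cKO replicates 1 to 4, against 8.95, 9.31, 9.24 and 9.47 in wild-type replicates 1 to 4. All 4 cKO arrays were lower than all 4 wild-type arrays, and the highest cKO value, in replicate 4, was nearest to the lowest wild-type value, in replicate 1. The mean was 8.60 ± 0.12 in the cKO and 9.24 ± 0.22 in wild type (SD, n = 4 each). The difference was −0.64 (SE 0.11, 95% confidence interval −0.90 to −0.39; limma adjusted p = 0.034), a level 1.56-fold lower in the cKO with an interval of 1.31-fold to 1.86-fold. By unadjusted p it ranked 247 among all genes, and 34 called genes fell by more on the log2 scale. In pooled tissue, fewer cells with this transcript and less of it per cell cannot be told apart. In the mouse skin, Troy and Edar are known to act with partial redundancy in hair follicle development, and Troy is not known to bind ectodysplasin.

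**Figure D2:**
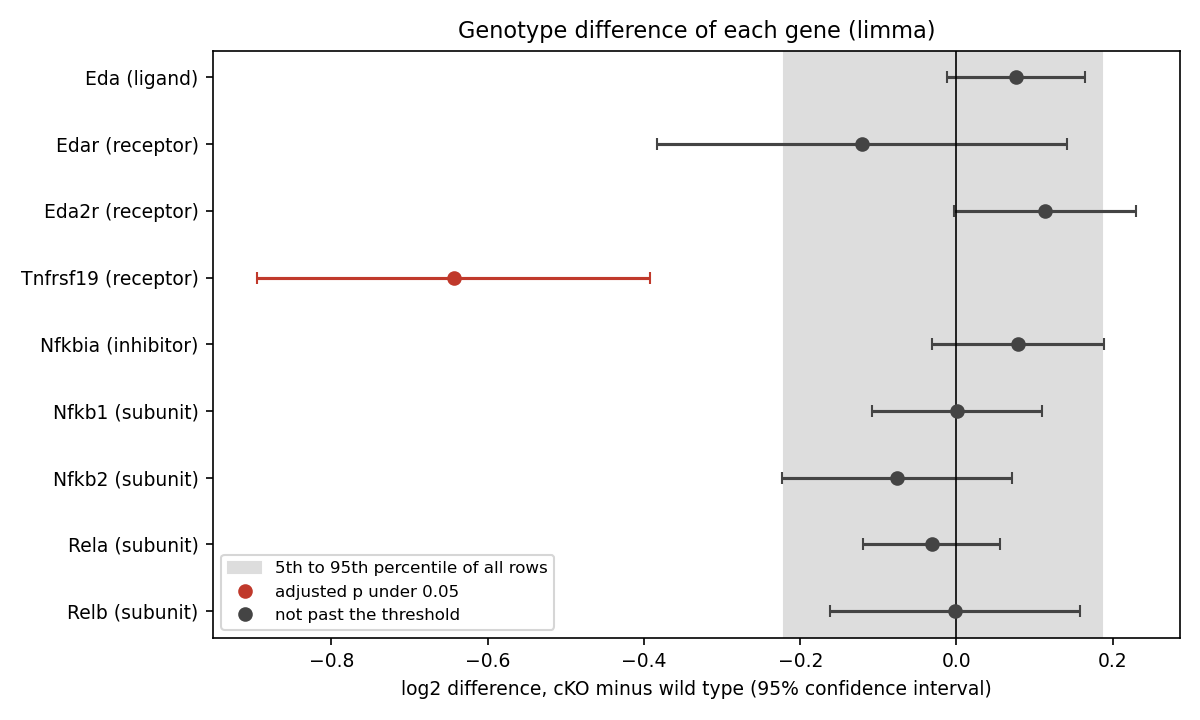
Log2 difference of each gene, cKO minus wild type, with its 95% confidence interval from limma (4 arrays per genotype). The grey band runs from −0.22 to 0.19, the 5th to 95th percentile of the differences of all genes. The interval of Tnfrsf19 (red) lies wholly below 0 and below the band, and the intervals of the other 8 genes cover 0.

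The Tnfrsf19 call depended on the setting. Leaving out any 1 of the 8 arrays gave differences of −0.74 to −0.57. The call was kept without wild-type replicate 1 (limma adjusted p = 0.018). It was lost without any of the other 7 arrays, each time with fewer samples in the fit. Among the cKO arrays, omission of replicate 1 gave a limma adjusted p of 0.11, of replicate 2 of 0.12, of replicate 3 of 0.11 and of replicate 4 of 0.065. Among the wild-type arrays, omission of replicate 2 gave 0.080, of replicate 3 gave 0.099 and of replicate 4 gave 0.086. The values without wild-type replicate 2, the array with the deviant median, were a difference of −0.62 and an SE of 0.12. Centring each array on its median gave −0.61 and an adjusted p of 0.052, just short of the call.

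**Figure D3:**
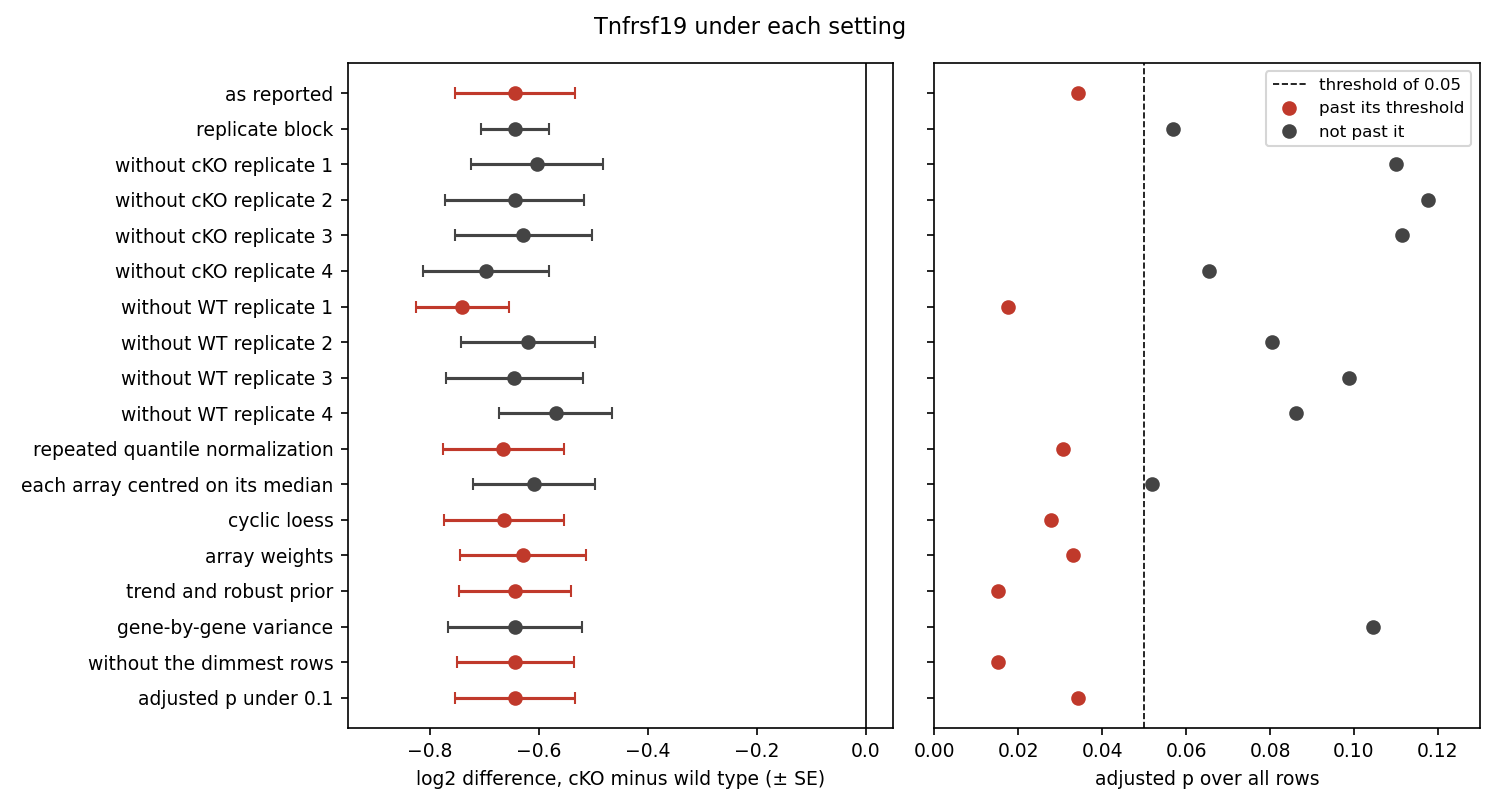
Tnfrsf19 under the reported setting and 17 alternatives, with the log2 difference, cKO minus wild type (± SE, left), and the adjusted p over all genes tested (right, dashed line at 0.05). All differences lie between −0.74 and −0.57, while the adjusted p lies between 0.015 and 0.12; red points are past their threshold, which is 0.1 in the bottom row, and 7 of the 17 alternatives are red.

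Nfkbia (ENSMUSG00000021025), which encodes IkB alpha, the inhibitor that holds NF-kB in the cytoplasm and is itself made in response to NF-kB, had 8.94, 8.85, 8.99 and 8.98 in cKO replicates 1 to 4. Its values were 8.87, 8.81, 8.85 and 8.92 in wild-type replicates 1 to 4. The groups overlapped, since cKO replicate 2 lay below 2 of the wild-type arrays. The difference was 0.079 (SE 0.048, 95% confidence interval −0.031 to 0.19; limma adjusted p = 0.69), and the interval reached at most 1.14 times the wild-type level.

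None of the 4 subunit genes passed the threshold, with limma adjusted p between 0.79 and 1.00. Rela (ENSMUSG00000024927) encodes p65, the activating subunit of the main NF-kB dimer downstream of Edar. It had 8.48, 8.46, 8.48 and 8.43 in cKO replicates 1 to 4 and 8.48, 8.50, 8.53 and 8.46 in wild-type replicates 1 to 4, a difference of −0.032 (SE 0.038), and its groups overlapped. Nfkb1 (ENSMUSG00000028163), whose product p105 is processed to the DNA-binding partner p50, had 8.18, 8.14, 8.19 and 8.19 in cKO replicates 1 to 4 and 8.17, 8.07, 8.22 and 8.24 in wild-type replicates 1 to 4. Its difference was 0.00066 (SE 0.048), and its groups overlapped. These are the genes of the canonical dimer, and their intervals held the cKO level between 0.921 and 1.04 times wild type for Rela and between 0.928 and 1.08 times for Nfkb1.

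Nfkb2 and Relb encode the dimer of the alternative NF-kB pathway. Nfkb2 (ENSMUSG00000025225) had 6.69, 6.62, 6.61 and 6.79 in cKO replicates 1 to 4 and 6.89, 6.69, 6.75 and 6.68 in wild-type replicates 1 to 4. Its cKO replicate 4 lay above 3 of the wild-type arrays, and the difference was −0.076 (SE 0.064, 95% confidence interval −0.22 to 0.071). Relb (ENSMUSG00000002983) had 6.08, 5.97, 5.92 and 6.07 in cKO replicates 1 to 4 and 5.85, 6.07, 5.996 and 6.13 in wild-type replicates 1 to 4. The groups of Relb overlapped over the whole cKO range, and the difference was −0.0019 (SE 0.070, 95% confidence interval −0.16 to 0.16). In linear terms the intervals ran from 0.857 to 1.05 times the wild-type level for Nfkb2 and from 0.894 to 1.12 times for Relb.

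**Figure D4:**
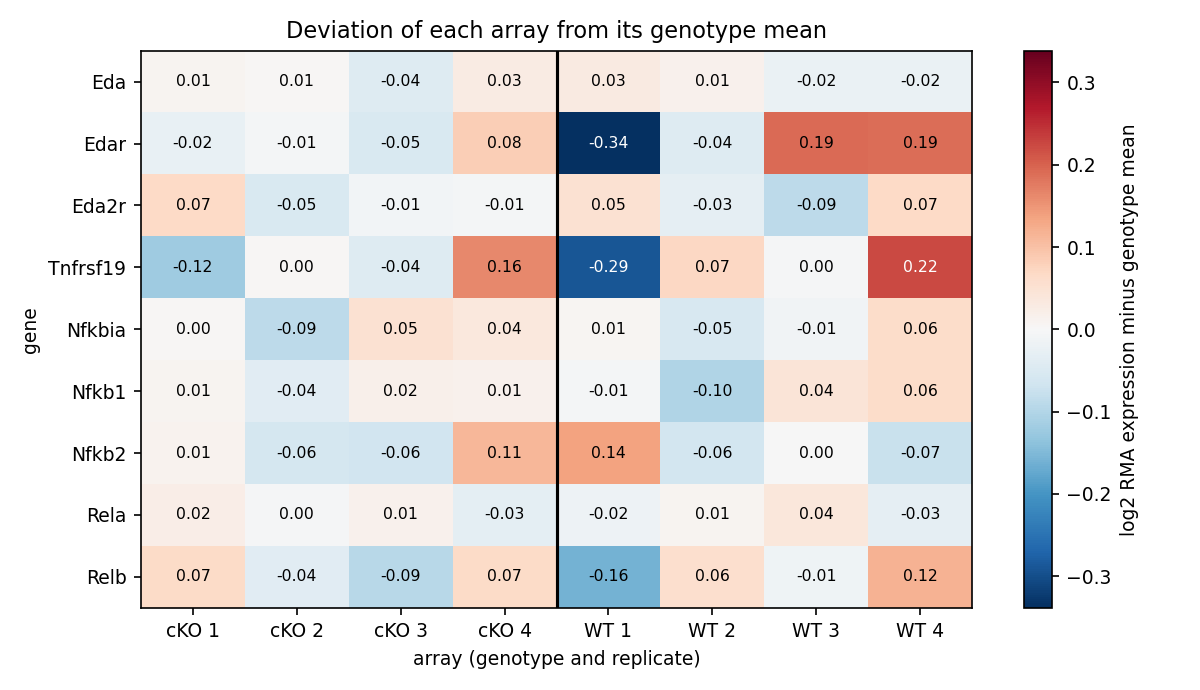
Deviation of each array from the mean of its own genotype for the 9 genes, on the log2 scale, with cKO arrays to the left of the black line and wild-type (WT) arrays to the right. Wild-type replicate 1 shows the lowest values of the plot, −0.34 for Edar and −0.29 for Tnfrsf19, while Eda and Rela vary little in either genotype.

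The genes differed in how much they varied within a genotype. Eda and Rela were steady, with an SD of 0.031 and 0.025 in the cKO and 0.027 and 0.031 in wild type. The median SD over all genes was 0.078 in the cKO and 0.115 in wild type, where it was 0.070 without replicate 2. Edar varied most in wild type, with an SD 4.35 times that in the cKO, and its wild-type SD was at the 87.2 percentile of all genes. Tnfrsf19 had an SD of 0.12 in the cKO and 0.22 in wild type. Wild-type replicate 1 held the lowest wild-type value of Edar, Tnfrsf19 and Relb and the highest of Nfkb2 and Eda. Without it the wild-type SD was 0.14 for Edar and 0.12 for Tnfrsf19. The part of litter, stage or cell makeup in this array's values was not tested.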

How the data were processed

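Expression was measured on 8 arrays, 4 cKO and 4 wild-type pools, grouped by their titles. The deposited values are log2 expression after RMA, the method that the submitters' processing notes name; array model and build are not given in the sources used here. This method corrects background, equalises arrays and summarises probes per gene, and it narrows large differences and those of dim genes. The table held 26165 Ensembl identifiers, values of 1.13 to 12.6 and no detection calls; 0 columns were left unused. The 8 columns were matched by sample accession.

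Members were taken by identifier. Their symbols came with the member list, and all were found in RefSeq by symbol; the pairing itself could not be checked there, as that table lists no Ensembl identifiers. For the same reason the planned lists of other pathway genes, Foxi3 and cell type markers were not analysed here. The members and lists were chosen with earlier results of these data known. The rule for named genes was all members.

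Linear models were fitted to all rows with limma (version 3.58.1, R 4.3.3; lmFit, then eBayes), genotype being the only term, on the values as deposited. Two-sided p-values had Benjamini-Hochberg adjustment over all rows and a threshold of 0.05. The step was tested on simulated data with independent noise for each gene and array. Such data hold no shift of a whole array, so that test cannot show how stable the calls are here. Labels call the pools biological replicates, and p-values measure the spread between pools, whose number limits the precision. Over all genes, same-numbered samples did not deviate together, so numbers were not treated as pairs. The correlations of deviations from group means were −0.046, −0.090, −0.037 and 0.020 for numbers 1 to 4. Tnfrsf19 deviated by −0.12, 0.0032, −0.045 and 0.16 in cKO replicates 1 to 4. In wild-type replicates 1 to 4 it deviated by −0.29, 0.070, −0.0038 and 0.22, so its replicates ranked alike. A block for the replicate number lowered its SE from 0.11 to 0.062. Nfkb2 showed no such order, with replicate 4 highest in the cKO (0.11) and lowest in wild type (−0.075). Beyond the correlations over all genes and this block, whether the numbers mark pairs was not tested. Alternatives were a block for the replicate number, omission of each array, other normalizations, weights, priors and thresholds, and a filter on the dimmest 40% of genes.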

Additional observations from a re-analysis of the deposited data

How the results depend on the processing

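Over 17 alternatives the Tnfrsf19 difference ranged from −0.74 to −0.57, and it stayed past the threshold in 7 of them, among them the looser threshold of 0.1, which it had to pass. Settings that change only the variance, the genes tested or the threshold leave the difference as it is, and omission of 1 array cannot turn the sign where groups do not overlap, so the constant sign is no sign of stability. The count of 1 gene called lower became 0 in the other 10: without any 1 array other than wild-type replicate 1, with each array centred on its median (limma adjusted p = 0.052), with gene-by-gene variance (0.10) and with the replicate number as a block. That replicate block left the difference at −0.64 with an SE of 0.062 and an adjusted p of 0.057. Leaving out 1 array thus gave 0 to 1 gene called lower. None of the other 8 genes passed the threshold under any alternative. Their lowest adjusted p was 0.24, for Eda with gene-by-gene variance. There the SE of Eda was 0.020, against 0.038 in the reported setting. Eda2r had no value without the dimmest genes.

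In 6 genes the sign held under every alternative. The differences of Nfkb1, Rela and Relb lay near 0 and changed sign. Nfkb1 became −0.017 with repeated quantile normalization, −0.017 with cyclic loess and −0.032 with array weights, and ranged from −0.033 to 0.022 when 1 array was left out. Rela became 0.0027 with centring on the median. Relb became 0.017 with repeated quantile normalization, 0.033 with centring and 0.015 with cyclic loess, and ranged from −0.055 to 0.037 when 1 array was left out. The median difference of the 9 genes moved to 0.033 with centring, which adds the same amount to every gene, and ranged from −0.030 to 0.022 when 1 array was left out. The 342 calls over all genes became 18 with the replicate block and 575 with array weights, 196 with centring and 181 with gene-by-gene variance, and 119 to 303 when 1 array was left out. Beyond fewer samples or degrees of freedom, the cause was not tested. Alternatives for the other pathway genes were not run.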
